A study of Mus musculus with 6 samples.

Results

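The circadian clock genes Clock, Arntl (also called Bmal1), Per1, Per2, Per3, Cry1, Cry2, Nr1d1, Nr1d2 and Dbp were followed in inguinal fat, a subcutaneous depot, of mice at the upper and lower ends of weight gain on a shared diet. A gene was taken where the array annotation gave its symbol alone for a probe. This held for 9 of the 10 genes, each with 1 probe, and the expression of Per3 was not analysed here. Of these 9, 7 had a value on all 6 arrays, against 8596 of the 13840 genes named by a probe of a single symbol. The mice were genetically identical C57BL/6J males, fed low-fat chow from weaning and then the high-fat diet D12331 for 4 weeks from 8 weeks of age, under a light/dark cycle. RNA of 8 high gainers formed 1 pool and RNA of 8 low gainers the other, and each pool was measured on 3 one-color arrays. Since 1 RNA was hybridized 3 times, n is a number of arrays. A p-value, standard error or interval here speaks of technical spread only, not of spread between mice. With 1 pool per group, weight gain cannot be told apart from anything else in which the pools differed. The sources used here do not give the hour at which the tissues were taken, so that a difference in weight gain and a difference in the hour of collection cannot be told apart either.

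The clock is a transcriptional feedback loop that runs in nearly every cell, fat cells included. CLOCK and ARNTL form a dimer that binds E-boxes and activates the Per, Cry, Nr1d and Dbp genes. PER and CRY proteins return to the nucleus and repress that dimer. The nuclear receptors NR1D1 and NR1D2 (also called REV-ERB alpha and beta) repress Arntl through ROR elements, on which the ROR receptors activate it. DBP and its relative TEF activate genes through D-boxes, on which NFIL3 acts as a repressor. In peripheral tissues Arntl mRNA peaks at about the opposite time of day from Dbp, Per and Nr1d mRNA, so that these genes, set side by side, form a readout of clock phase. A single pooled RNA per group holds no cycle, and neither a phase nor an amplitude can be read from these arrays. Whether the mice of a pool were taken at the same hour is not given either.

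Short motifs that these factors bind were looked for in the promoters. Sequence just before the start of transcription was taken from RefSeq (mouse build GRCm38.p6), in which 9 of the 10 genes, all but Per2, had an entry, with 13 start sites in all. The 250 bases before each start were searched on both strands for the E-box CACGTG, the E-prime box CACGTT, the D-box TTATGTAA, the ROR element cores TAGGTCA and TGGGTCA, and the cAMP response element TGACGTCA. In the sequences that follow, capitals mark only the match named at the head of the line. The Cry1 line also holds an E-prime box, left in small letters. The sequences are read 5′ to 3′ on the strand of the gene, and AACGTG is the E-prime box on the other strand. The Dbp sequence is shown because Dbp had the smallest p-value of the clock genes, and the others because each is an example of a motif in a member of the loop.
Dbp, bases before the start, chr7:45704997-45705246, plus strand: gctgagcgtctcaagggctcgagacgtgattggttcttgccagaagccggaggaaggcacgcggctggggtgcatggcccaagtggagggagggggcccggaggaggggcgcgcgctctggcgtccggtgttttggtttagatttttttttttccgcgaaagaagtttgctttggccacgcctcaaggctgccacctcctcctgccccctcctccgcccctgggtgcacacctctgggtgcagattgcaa
Cry1 E-box, chr10:85185089-85185134, minus strand: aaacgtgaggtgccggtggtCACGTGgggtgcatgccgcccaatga
Per1 E-box, chr11:69098763-69098808, plus strand: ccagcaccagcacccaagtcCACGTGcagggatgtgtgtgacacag
Nr1d1 E-prime box, chr11:98775380-98775425, minus strand: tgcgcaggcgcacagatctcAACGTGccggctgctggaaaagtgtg
Cry2 E-prime box, chr2:92434210-92434255, minus strand: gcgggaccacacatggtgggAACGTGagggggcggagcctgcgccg
Per3 D-box, chr4:151044843-151044890, minus strand: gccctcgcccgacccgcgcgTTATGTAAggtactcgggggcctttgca
Arntl ROR element core, chr7:113207531-113207557, plus strand: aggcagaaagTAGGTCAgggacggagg
The E-box was found before 2 of the 13 clock gene starts, at 60 bases before the start of Cry1 and 166 before that of Per1, and in 6.02% of all 32851 promoter windows. The E-prime box was found before 3 of them, in Cry1, Cry2 and Nr1d1, against 3.85% of all windows. Among the genes searched, the D-box was found before the start of Per3 alone, at 205 and 158 bases, against 0.819% of all windows. The ROR element core was in none of the 13 and in 5.38% of all windows, and the Arntl match lies 31 bases after the second of its starts. The cAMP response element was in none of the 13 and in 1.55% of all windows. None of these letters was in the 250 bases before Dbp. A match is a description of the letters, and a window without one says nothing about the factor.

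No clock gene was called between the pools. A call asked for a limma p under 0.01 after Benjamini-Hochberg adjustment together with a fold of at least 1.5, which 2.5% of the 15821 probes with values on all arrays passed as higher in high gainers and 3.99% as lower. Dbp came nearest, with a level 1.45 times as high in high gainers, and it passed the p threshold but not the fold. Of the 7 genes tested, 1 passed the p threshold at any fold, against 2.82% of all probes in that direction and 4.13% in the other. At an unadjusted p under 0.05, 4 of the 7 were higher in high gainers (Clock, Per2, Nr1d2 and Dbp) and 1 was lower (Arntl), against 17.4% and 13.6% of all probes. The median log2 ratio of high over low gainers was 0.44 over the 7 genes and 0.03 over all probes.

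**Figure D1:**
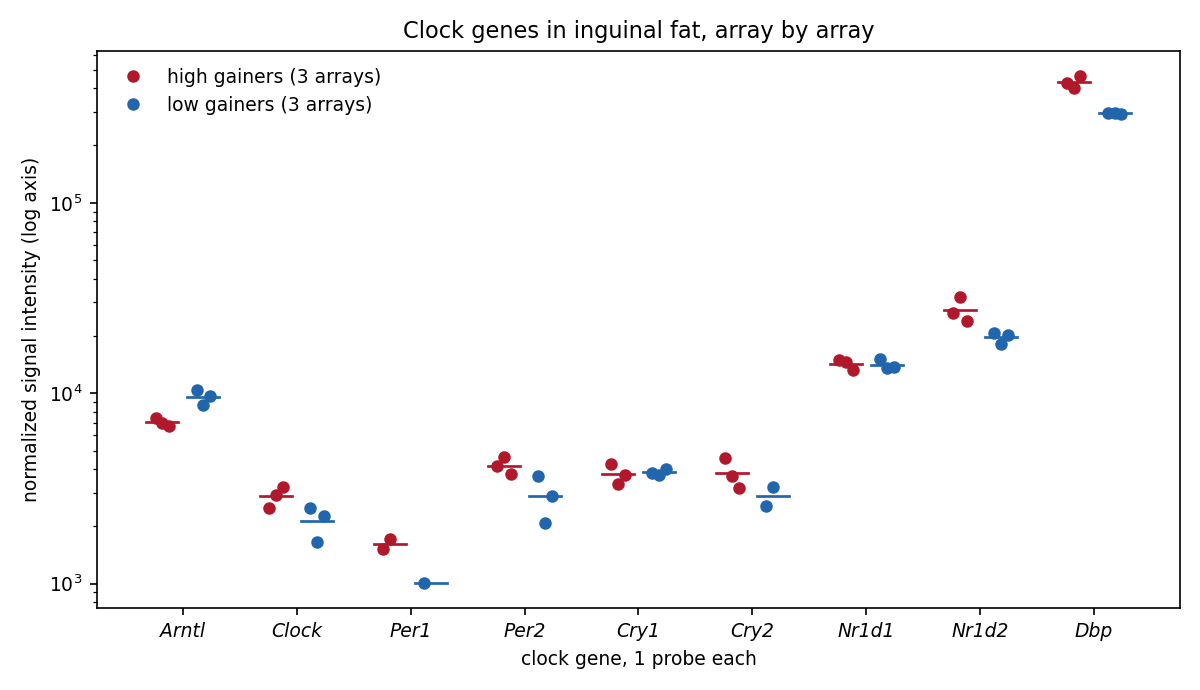
Signal intensity (log axis) of each clock gene with a probe on each of the 6 arrays, with 1 point per array and a line at the mean of the arrays with a value, by pool. Levels are not comparable between genes, since each probe has its own brightness. Of the 7 genes with all 6 values, Dbp, Nr1d2 and Per2 lie apart as higher in high gainers, against 20.3% of all probes. Arntl lies apart as lower, against 16.3% of all probes. A missing point is an array without a value, as for Per1 and Cry2.

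Arntl and Clock encode the activating dimer. The signal intensity of Arntl was 7387, 6998 and 6750 on the arrays of high gainers and 10360, 8661 and 9694 on those of low gainers. All 3 high-gainer arrays lay under the lowest low-gainer array, a separation in that direction that 16.3% of all probes showed. The mean was 7045 ± 321 (SD, n = 3) in high gainers and 9572 ± 856 in low gainers, a log2 ratio of -0.44 (SE 0.10, 95% interval -0.68 to -0.20, limma adjusted p = 0.0287). The level was thus 1.36 times as high in low gainers, a difference larger than the spread between arrays but short of both thresholds. With any 1 array left out, the log2 ratio of Arntl ran from -0.51 to -0.38, with adjusted p from 0.0328 to 0.0989. Arntl passed both thresholds only when ratios were taken relative to the change of the adipocyte markers. Its log2 ratio there was -0.60 (limma adjusted p = 0.00777). The shift was taken as a constant, so this p leaves out the error of the shift itself.

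Clock, the partner of ARNTL and a gene whose mRNA cycles weakly in most tissues, had signals of 2483, 2913 and 3228 in high gainers and 2497, 1662 and 2272 in low gainers. The groups overlapped, since array 1 of high gainers lay just under array 1 of low gainers. The log2 ratio was 0.44 (SE 0.17, 95% interval 0.03 to 0.84, adjusted p = 0.138). The probe was dim, at percentile 6.94 of the signals tested. Array 2 of low gainers gave the lowest value, and without it the log2 ratio was 0.26 (adjusted p = 0.300). With an offset of 2848 added to every intensity it was 0.20 (adjusted p = 0.194), and relative to the adipocyte markers 0.27 (adjusted p = 0.306).

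Per and Cry genes encode the repressors. Per2 had signals of 4128, 4606 and 3761 in high gainers and 3693, 2072 and 2878 in low gainers. The groups did not overlap, a separation in that direction that 20.3% of all probes showed, but the lowest high-gainer array and the highest low-gainer array were close. The log2 ratio of 0.57 (SE 0.21, 95% interval 0.09 to 1.05, adjusted p = 0.108) was the largest among the clock genes and the least precise, from a dim probe at percentile 13.6. It fell to 0.35 (adjusted p = 0.213) without array 2 of low gainers and stood at 0.77 (adjusted p = 0.0340) without array 1 of low gainers. With the same offset it was 0.30 (adjusted p = 0.0928).

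Per1, a Per gene that also responds quickly to hormones and cAMP, was measured on 2 arrays of high gainers, at 1528 and 1708, and on 1 array of low gainers, at 1014. The other 3 arrays held no value, and no ratio was computed. Cry1 had signals of 4227, 3349 and 3742 in high gainers and 3808, 3734 and 3993 in low gainers, with the low-gainer arrays inside the range of the high-gainer arrays. Its log2 ratio was -0.03 (SE 0.11, 95% interval -0.30 to 0.23, adjusted p = 0.877). A difference of 1.5-fold in either direction lay outside this interval, which covers technical spread and not the spread between mice. The Cry1 probe was also dim, at percentile 16.2. Cry2 had signals of 4595, 3661 and 3197 in high gainers and of 2553 and 3217 on arrays 1 and 3 of low gainers, with array 2 blank. The groups overlapped, and over the 17810 probes with at least 2 values per pool the log2 ratio of Cry2 was 0.40 (SE 0.19, 95% interval -0.08 to 0.87, adjusted p = 0.245).

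Nr1d1 and Nr1d2 encode the receptors that repress Arntl. Nr1d1 had signals of 14997, 14581 and 13228 in high gainers and 15076, 13538 and 13653 in low gainers, and the groups overlapped. Its log2 ratio was 0.02 (SE 0.10, 95% interval -0.22 to 0.25, adjusted p = 0.926). A 1.5-fold difference lay outside this interval, again one of technical spread only. Nr1d2 had signals of 26390, 31860 and 24056 in high gainers and 20605, 18027 and 20300 in low gainers. Nr1d2 was higher on every high-gainer array than on any low-gainer array, as were 20.3% of all probes. Its mean was 27435 ± 4006 (SD, n = 3) against 19644 ± 1409, a log2 ratio of 0.47 (SE 0.13, 95% interval 0.17 to 0.78, adjusted p = 0.0458) or 1.39 times as high in high gainers. Relative to the adipocyte markers the log2 ratio of Nr1d2 was 0.31 (adjusted p = 0.134). With any 1 array left out it ran from 0.36 to 0.56, with limma adjusted p from 0.0388 to 0.1295. The difference between the receptors was set out array by array. The log2 level of Nr1d2 minus that of Nr1d1 was 0.82 to 1.13 on high-gainer arrays and 0.41 to 0.57 on low-gainer arrays, a difference of 0.46 (two-sided exact permutation test over arrays, p = 0.1, the smallest that 20 relabelings allow). This contrast was not among the planned comparisons. With that floor, and with repeats of 1 RNA per pool, the test cannot decide whether the receptors differ.

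Dbp, a D-box activator and one of the most strongly cycling mRNAs of peripheral tissues, had a probe at percentile 95.6 of the signals tested. Its signals were 424958, 399659 and 462804 in high gainers and 296096, 297056 and 291442 in low gainers. All high-gainer arrays lay above the narrow range of the low-gainer arrays, a separation in that direction that 20.3% of all probes showed. The mean was 429140 ± 31780 (SD, n = 3) against 294865 ± 3003, a log2 ratio of 0.54 (SE 0.10, 95% interval 0.32 to 0.76, limma adjusted p = 0.0095), with a fold of 1.45 and an interval of 1.24 to 1.70 that holds the 1.5-fold threshold. Dbp kept its direction in every alternative, at log2 ratios of 0.37 to 0.59 with adjusted p from 0.00086 to 0.0452. With any 1 array left out the adjusted p lay above 0.01, from 0.0203 to 0.0452.

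**Figure D2:**
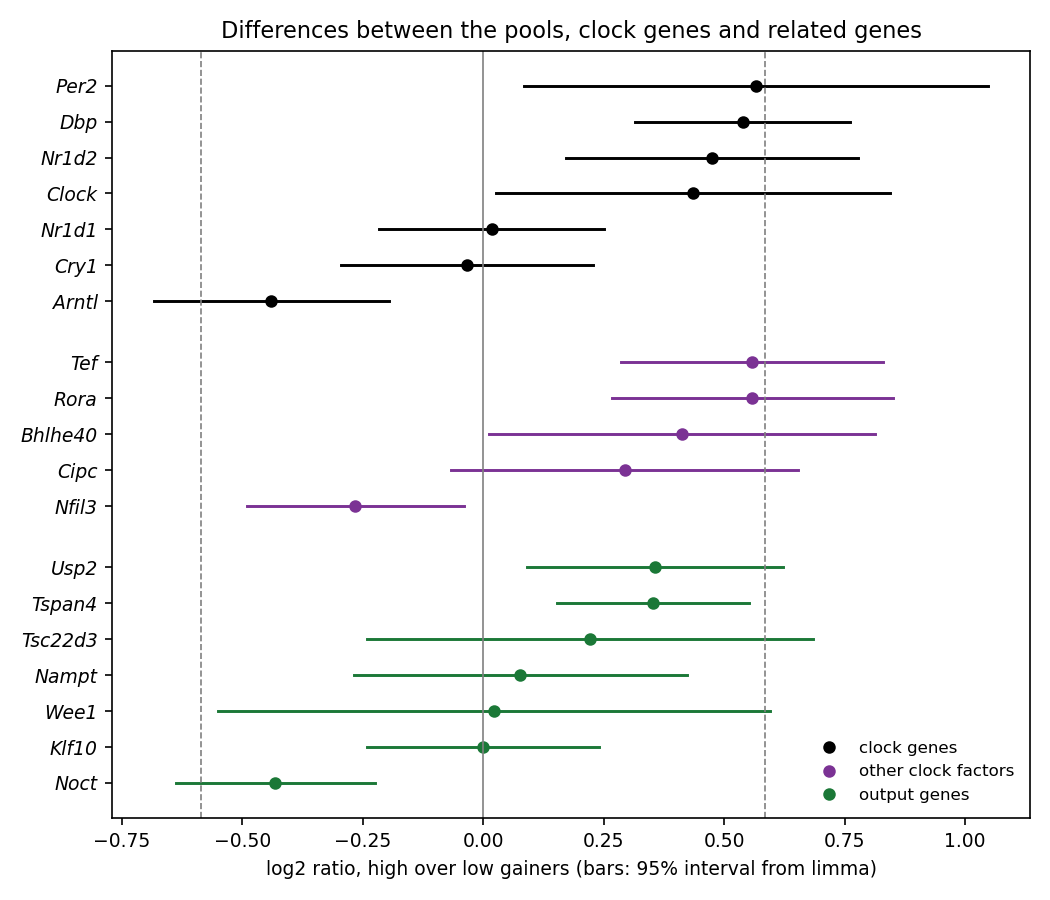
Log2 ratio of high over low gainers for the 7 clock genes tested, the 5 other transcription factors of the loops tested and the clock output genes tested, with 95% intervals from limma as bars. Dashed lines mark a fold of 1.5 in either direction. Dbp at 0.54 and Arntl at -0.44 lie on opposite sides of 0, and the intervals of Nr1d1 and Cry1 lie across 0.

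Set against its own mean over the 6 arrays, each gene gave a profile that can be read array by array. On the log2 scale Dbp lay at 0.26, 0.17 and 0.38 on the high-gainer arrays and at -0.26, -0.26 and -0.29 on the low-gainer arrays. Arntl lay at -0.15, -0.23 and -0.28 and at 0.34, 0.08 and 0.24. On each of the 6 arrays Dbp and Arntl lay on opposite sides of their means. Nr1d2 went the way of Dbp on every array, at 0.19, 0.46 and 0.06 against -0.17, -0.36 and -0.19. Per2 lay above its mean on all high-gainer arrays but also on array 1 of low gainers, at 0.11. Nr1d1, which as a rule peaks close in time to Dbp, lay between -0.10 and 0.09 on all 6 arrays, with both signs in each pool. Cry1, whose mRNA peaks later than that of Dbp, lay between -0.18 and 0.15. In all, 5 of the 7 clock genes had a ratio above 0, a sign that 54.1% of all probes had. The arrays of a pool share 1 RNA, so that the like profiles of 3 arrays are 1 observation of that pool.

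**Figure D3:**
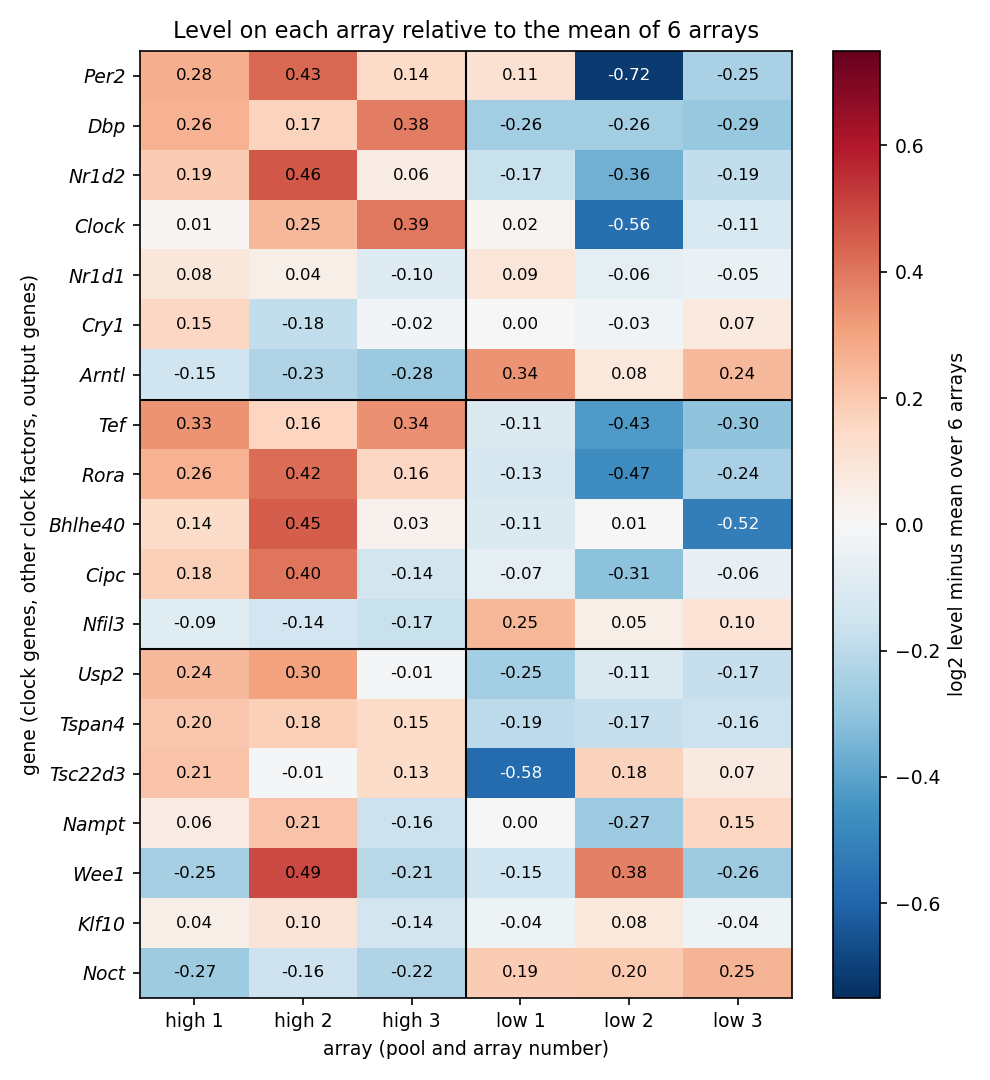
Log2 level of each gene on each array minus its mean over the 6 arrays, for the 7 clock genes, 5 other clock transcription factors and 7 further output genes tested, each block ordered by the ratio between the pools. Red is above the mean and blue below it. The vertical line divides the pools. Dbp, Nr1d2, Tef, Rora and Tspan4 are above their means on all high-gainer arrays and below on all low-gainer arrays, while Arntl, Nfil3 and Noct are the other way round. Such a split requires pools that do not overlap, which 20.3% of all probes showed as higher and 16.3% as lower.

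Further transcription factors of the loops were taken from a list of 12, of which 8 had a named probe and 5 had values on all arrays. None was called, and 3 passed an unadjusted p of 0.05 as higher in high gainers and 1 as lower, against 17.4% and 13.6% of all probes. The median log2 ratio was 0.41, against 0.03 over all probes. Tef, the D-box activator related to Dbp, had signals of 183902, 162965 and 185024 in high gainers and 135415, 108589 and 118185 in low gainers. The groups did not overlap, as for 20.3% of all probes in that direction, and the log2 ratio was 0.56 (SE 0.12, adjusted p = 0.0178). Rora, the receptor that activates Arntl through the ROR element, had signals of 30825, 34308 and 28654 against 23540, 18571 and 21726, again without overlap, and a log2 ratio of 0.56 (SE 0.12, adjusted p = 0.0230).

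Nfil3, the D-box repressor, had signals of 16120, 15552 and 15287 in high gainers and 20416, 17700 and 18404 in low gainers. These groups did not overlap either, as for 16.3% of all probes in that direction. The log2 ratio was -0.27 (SE 0.10, adjusted p = 0.109), opposite in sign to that of Dbp and Tef. Bhlhe40, a repressor that competes for E-boxes, had a log2 ratio of 0.41 (adjusted p = 0.150), and Cipc, an inhibitor of CLOCK, one of 0.29 (adjusted p = 0.248). Npas2, Arntl2 and Bhlhe41 lacked values on some or all arrays.

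Of 13 clock output genes listed, 9 had a probe and 8 were tested, and none was called. At an unadjusted p under 0.05, 3 were higher in high gainers, with Tef, already counted above, among them, and 1 was lower, against 17.4% and 13.6% of all probes. The median log2 ratio was 0.15, against 0.03 over all probes. Noct, a rhythmic gene that encodes nocturnin, had signals of 32713, 35233 and 33656 in high gainers and 44943, 45121 and 46893 in low gainers. The groups lay apart, as for 16.3% of all probes in that direction. The log2 ratio was -0.43 (SE 0.09, adjusted p = 0.0162), the lowest of the list. Usp2, a rhythmic ubiquitin protease, had a log2 ratio of 0.36 (adjusted p = 0.0745) and Tspan4 one of 0.35 (adjusted p = 0.0303). Wee1, a cell cycle kinase with E-boxes in its promoter, and Nampt, the rate-limiting enzyme of NAD salvage, had log2 ratios of 0.02 and 0.08 (adjusted p = 0.963 and 0.774). The Wee1 value was imprecise (SE 0.24, 95% interval -0.55 to 0.59), from a dim probe at percentile 5.09.

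The proteins that modify the clock proteins were taken from a list of 26 kinases, phosphatases, ubiquitin ligases and cofactors, of which 18 had a probe and 17 were tested. Here 2 were called higher in high gainers and none lower, against 2.5% and 3.99% of all probes, with a median log2 ratio of 0.11 against 0.03. Ncoa2, a coactivator of nuclear receptors, had signals of 8109, 6531 and 6063 in high gainers and 3253, 2639 and 2380 in low gainers, a log2 ratio of 1.32 (SE 0.16, adjusted p = 0.00167) from a dim probe. Csnk2a1, a catalytic subunit of casein kinase 2, had signals of 22709, 24500 and 20733 against 12197, 13447 and 14368, with a log2 ratio of 0.76 (SE 0.11, adjusted p = 0.00402). Its probes disagreed, as the other probe had signals of 7084, 6499 and 6605 against 5077, 6937 and 5652, which overlap, and a log2 ratio of 0.20. Ncoa2 kept its call whichever array was left out, while Csnk2a1 kept it with array 3 of high gainers left out and lost it with any other array left out. The casein kinase 1 genes that phosphorylate PER, Csnk1d and Csnk1e, had log2 ratios of 0.08 and 0.30 (adjusted p = 0.625 and 0.107). The lowest ratio of the list was that of Dyrk1a, a kinase that acts on CRY2, at -0.28 (adjusted p = 0.224).

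**Figure D4:**
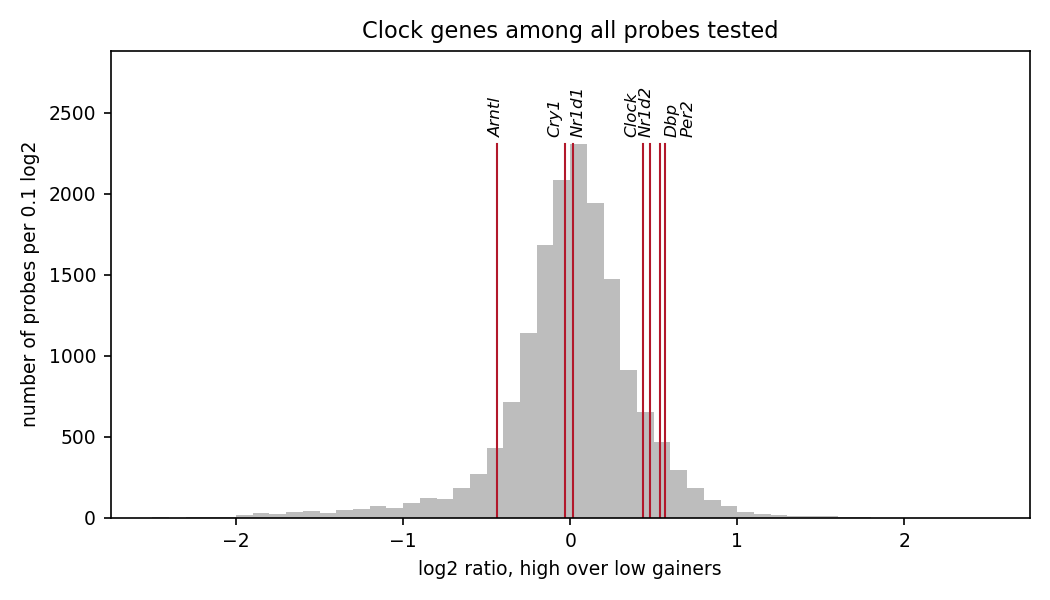
Number of probes per 0.1 log2 of the ratio of high over low gainers, over the 15821 probes tested, with the 7 clock genes marked at their ratios by red lines, whose height has no meaning, and with more extreme ratios counted in the outermost bars. The clock genes lie between -0.44 (Arntl) and 0.57 (Per2). Their median is 0.44, the value of Clock alone, against 0.03 for all probes.

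Glucocorticoids and acute stimuli act on Per1 and other clock genes, so genes that respond to them were set beside these values. Of 10 glucocorticoid response genes tested, none was called higher and 1 lower, against 2.5% and 3.99% of all probes, with a median log2 ratio of 0.11 against 0.03. Fkbp5 and Tsc22d3, a pair of direct glucocorticoid receptor targets, had log2 ratios of 0.06 and 0.22 (adjusted p = 0.745 and 0.499). The gene called lower was Lcn2, which also responds to inflammation, at -1.30 (adjusted p = 0.00056), and the highest was Cdkn1a at 0.57 (adjusted p = 0.0109). Of 17 immediate early genes, which respond within minutes to handling and hormones, none was called higher and 1 lower, against the same shares of all probes, with a median log2 ratio of 0.05. Fos and Egr1 had log2 ratios of 0.38 and 0.04 (adjusted p = 0.0783 and 0.858). The gene called lower was Btg2 at -0.73 (adjusted p = 0.00283), and the highest was Ier3 at 0.54 (adjusted p = 0.00964), under the fold threshold.

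Markers of cell types also differed between the pools. The calls below are to be read against 2.5% of all probes called higher in high gainers and 3.99% called lower. Of 13 adipocyte markers tested, 1 was called higher (Lep, the hormone leptin) and none lower, with a summed signal of 7813531 to 8309389 in high gainers and 7418830 to 7786687 in low gainers. All 6 B lymphocyte markers tested and 5 of 7 T lymphocyte markers were called lower in high gainers, against 3.99% of all probes, with B lymphocyte sums of 109397 to 118807 against 356656 to 378113 and T lymphocyte sums of 109836 to 131883 against 316950 to 374400. Skeletal muscle markers were called lower for 9 of 10, with sums of 1663724 to 1738939 against 2611897 to 2992764, and 3 of 6 epithelial markers were called lower, with sums of 89156 to 129168 against 137426 to 164491. Most of each epithelial sum was Cldn4, which was not called, at 64343 to 93118 in high gainers and 72020 to 102821 in low gainers. Another 4 epithelial markers had blanks and were not tested. Of these, Epcam had 1 value in high gainers, 1001, against 14220, 12152 and 11672 in low gainers. Krt5 had 856 against 9689, 4689 and 6281, and Krt19 and Cldn7 had values in low gainers only. Of 6 brown and beige adipocyte markers 1 was called lower (Ucp1, log2 ratio -2.77), with sums of 878269 to 922308 against 1141937 to 1167510. Most of each sum was Cox8b, which was not called, at 799515 to 844788 in high gainers and 982885 to 1011527 in low gainers. Of 8 stromal cell markers 1 was called higher and 1 lower, and of the macrophage and endothelial markers, 6 each, none was called. In bulk tissue fewer cells of a type and less RNA per cell cannot be told apart, and the part of these cells in the values of Arntl, Dbp or any other clock gene was not tested. Relative to the median change of the adipocyte markers, every log2 ratio is shifted by -0.17, which puts Nr1d1 at -0.15 and leaves Dbp at 0.37 (adjusted p = 0.0334). That median is the value of Fabp4, which was imprecise (SE 0.25, 95% interval -0.42 to 0.75), and the shift was taken as free of error.

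The number of values differed between arrays of the same pool. Array 3 of high gainers and array 2 of low gainers held the fewest values, 18018 and 18444, and also 8 and 7 of the 9 clock genes, against up to 20605 probes and all 9 clock genes on the fullest array. Over all probes tested, the correlation on the log2 scale was 0.988 to 0.994 within a pool and 0.972 to 0.980 between the pools, across probes, which are not independent replicates.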

How the data were processed

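The 6 arrays were one-color mouse genome arrays. According to their methods, the authors labeled cRNA from 1 RNA pool per group, read it by chemiluminescence and quantile normalized the signals. The deposited values are these intensities on a linear scale, with blanks where an array held no value, and the sources used here do not say whether a detection filter made each blank. Probes were named from an annotation table, updated through RefSeq of GRCm38.p6, and probes of several symbols were left unnamed. Gene coordinates are left out because the sources used here do not give the build of the probes.

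Intensities with values on all 6 arrays (15821 of 33012 probes) were log2 transformed and tested with limma 3.58.1 in R 4.3.3, with p-values adjusted over all of them. The fit was tested on simulated data. Where probes shared a gene, the brightest stood for it, and a probe is dim in the lowest 33.3% of signals. The text names every clock gene, every called gene of the other pathway lists and the highest and lowest gene of each, and other genes were chosen after their values were seen. The members, lists and thresholds were chosen with earlier results of these data known. The alternatives were other normalization and centering, dim probes left out, an offset of 2848, other thresholds, the methods' ANOVA, each array left out, and the array number as a block. Arrays of one number shared little or no deviation (r = 0.04, -0.11 and 0.27), most for number 3, and numbers were not taken as pairs.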

Additional observations from a re-analysis of the deposited data

How the results depend on the processing

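Taken relative to the change of the adipocyte markers, 188 probes were called higher and 956 lower, in place of 396 and 632, with Arntl the 1 clock gene called lower, Nr1d1 turned to a log2 ratio of -0.15, and of the other pathway genes 1 was called higher (Ncoa2) and 1 lower (Noct). With no fold threshold 1 clock gene, Dbp, was called higher. A 2-fold threshold gave 98 and 402 probes and the ANOVA after adjustment 46 and 111. A fit over the 8596 named genes alone, with the probes of a gene averaged, gave 302 higher and 390 lower calls among fewer features tested. Of the 2 other pathway genes called higher, 1 was left without dim probes (Csnk2a1), and 1 (Ncoa2) at 2-fold, with the replicate block and with named genes alone, and 0 after the adjusted ANOVA. The block left 173 probes called higher, with Dbp at an adjusted p of 0.0319, Nr1d2 at 0.0907 and Arntl at 0.0526, and no clock gene called. With 1 array left out, 105 to 319 probes were called higher and 368 to 493 lower, 1 to 2 other pathway genes were called higher (Ncoa2 each time, Csnk2a1 only without array 3 of high gainers), the log2 ratio of Nr1d1 ran from -0.019 to 0.072 and that of Cry1 from -0.12 to 0.049. Arntl, Clock, Per2, Nr1d2 and Dbp kept their sign in every alternative that held them. The number of arrays limits the precision, and no alternative stands in for a second pool of mice.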
